A study of Mus musculus with 6 samples.

Results

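The 47 genes described here license, open and copy DNA in S phase, and they were taken as a fixed list of symbols from a table of 57010 gene identifiers. Each of the 47 symbols matched 1 identifier. Transcripts were measured by RNA sequencing of total ventricle RNA from mouse hearts at postnatal day 14, in 3 Cend1-KO libraries and 3 control libraries. The groups are given as Cend1-KO (C1KO) and control, the titles calling the control libraries CTL and the sample descriptions tying them to table columns named WT. The labels do not say how or in which cells Cend1 was deleted, name the strain, or say whether each library came from its own mouse. The p-values thus reflect only how far these libraries spread, and some of that may be technical. Libraries are called replicates 1, 3 and 4 of each group, after their titles, and values for a group are given in that order. Cend1 itself was listed at 0 TPM in all 3 Cend1-KO libraries, against 1.44, 1.99 and 1.54 TPM in the control libraries.

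DNA replication starts from sites marked by the origin recognition complex (ORC). Cdc6 and Cdt1 load the ring-shaped MCM2-7 helicase there, Cdc45 and the GINS complex turn it into an active helicase, and polymerases, the sliding clamp PCNA, the single-strand binding complex RPA and the nick-sealing ligase follow at the moving fork. Many of these genes are switched on together in cycling cells by E2F transcription factors, whereas several ORC subunits are also made in cells that do not divide. Mouse heart muscle cells largely leave the cell cycle soon after birth.

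Values are the authors' TPM (transcript abundance scaled by gene length and to one total per library), from which read numbers cannot be had, and library depth is unknown. Libraries differed in composition. Mitochondrial-genome transcripts took 17.9%, 34.9% and 22.9% of TPM in Cend1-KO libraries and 18.3% to 19.9% in control libraries, and the median level of all genes also differed between libraries. The median difference over all 13542 genes tested was -0.11 on the log2(TPM + 1) scale as deposited and 0.0020 after median-of-ratios scaling, in which each library is divided by its median ratio to the mean of all libraries. The factors ran from 0.714 in Cend1-KO replicate 3 to 1.24 in Cend1-KO replicate 1. Both scales are given below, since they changed the calls.

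Of the 43 replication genes tested, 13 fell in Cend1-KO ventricles after scaling and 0 passed the test as deposited. The sign of the difference was negative for 37 of the 43 as deposited and for 33 after scaling. As deposited, limma called 0 of the 43 members tested at an adjusted p under 0.05, where 1.70% of all genes were called in either direction, 0.908% as lower and 0.790% as higher. At an unadjusted p under 0.05, 20 of the 43 (46.5%) were lower and 0 higher, against 10.4% lower and 4.98% higher among all genes. After median-of-ratios scaling 13 of the 43 (30.2%) fell and 0 rose, against 4.14% of all genes that fell and 6.17% that rose (10.3% in either direction). Groups did not overlap, with Cend1-KO lower, for 16 members as deposited and 22 after scaling, against 18.6% and 17.0% of all genes, and they did so with Cend1-KO higher for 0 members on both scales, against 5.67% and 17.9% of all genes. The 13 were Cdt1, Mcm2, Mcm3, Mcm4, Mcm5, Mcm7, Cdc45, Gins1, Prim1, Pcna, Rpa1, Rpa2 and Uhrf1, and 30 members were not called on that scale. The median difference of the 43 was -0.49 as deposited and -0.39 after scaling.

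The calls depended on the libraries. After scaling, Mcm2, Cdc45, Cdt1 and Uhrf1 stayed called whichever library was left out, and Rpa2 stayed called in 5 of the 6 such fits. The share of all genes called as lower in the same scaled fit stands beside each count, and was 4.14% with all libraries. Leaving out Cend1-KO replicate 4 gave 5 members called as lower, with 3.13% of all genes. Leaving out control replicate 1 gave 8 members (1.64% of all genes), control replicate 3 gave 4 (1.25%) and control replicate 4 gave 7 (2.65%). Leaving out Cend1-KO replicates 1 and 3 gave 13 (2.75%) and 11 (4.17%). As deposited, 17 members (39.5%) were called as lower once Cend1-KO replicate 1 was left out, with 3.87% of all genes. Once Cend1-KO replicate 3 was left out, 2 members (4.65%) were called as lower, with 2.32% of all genes, and 3.77% of all genes were called as higher. As deposited, 0 members were called when any other library was left out, with 0.273% to 0.606% of all genes called as lower. In ventricle tissue, fewer cells that make these transcripts and less transcript per cell cannot be told apart.

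**Figure D1:**
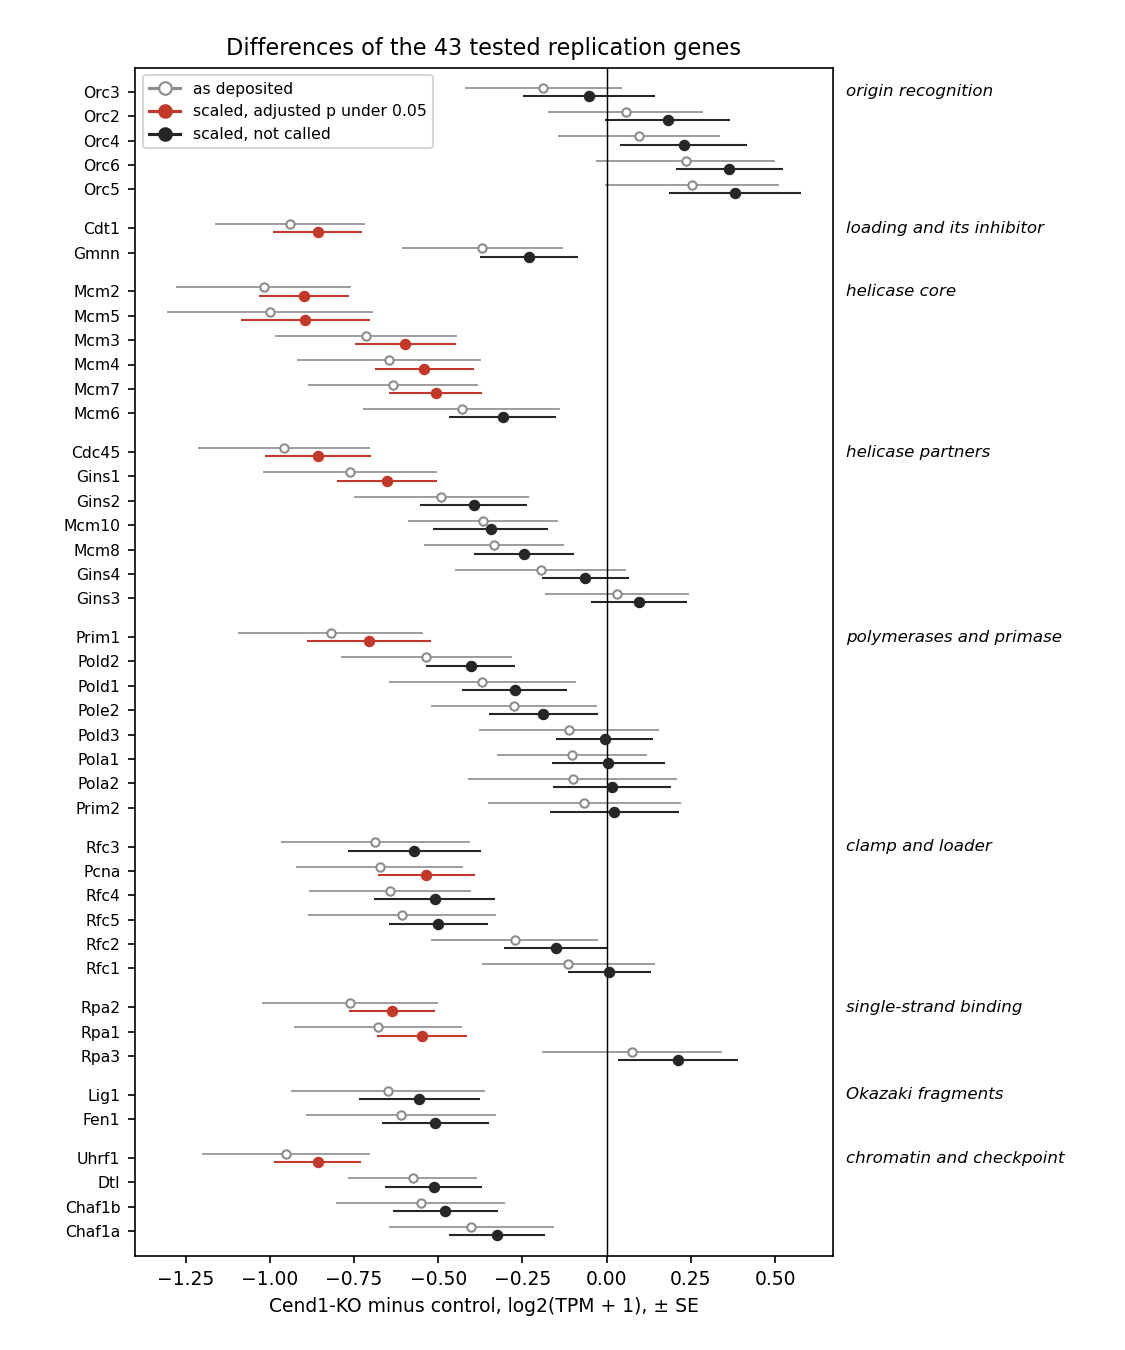
Cend1-KO minus control differences of the 43 tested members on the log2(TPM + 1) scale, with SE from limma, ordered by role. Open points are values as deposited and filled points are after median-of-ratios scaling, where the 13 called members, all lower in Cend1-KO, are red.

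Median levels of the list were lower in each Cend1-KO library than in any control library after scaling. Relative to the mean of the controls, the medians were -0.27, -0.47 and -0.46 in Cend1-KO libraries, and -0.14, 0.14 and 0.0061 in control libraries. As deposited the medians were -0.068, -0.85 and -0.53 in Cend1-KO libraries, and -0.15, 0.049 and 0.096 in control libraries, so that Cend1-KO replicate 1 lay between control libraries. Cend1-KO replicate 3 had the lowest deposited value for 35 of the 43 members, and its all-gene median was -0.45 from the control mean. After scaling it was lowest for 14 members and Cend1-KO replicate 4 for 16.

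**Figure D2:**
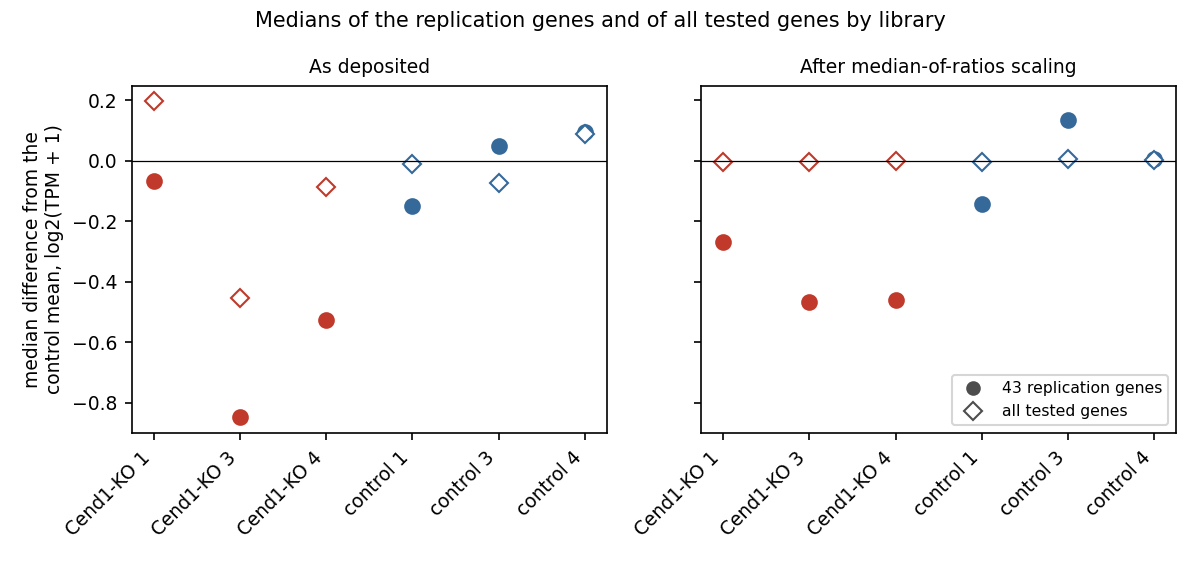
Median difference from the control mean in each library, on the log2(TPM + 1) scale, for the 43 tested members (filled circles) and all 13542 tested genes (open diamonds). Scaling brings the all-gene medians to about 0, and the members' medians in Cend1-KO libraries then lie between -0.47 and -0.27.

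Because many of these genes are known as E2F targets, the 250 bases before each RefSeq start (GRCm38.p6) were searched for the E2F-type letters TTTCGCGC and TTTGGCGC on both strands. A window was at hand for 39 of the 47 members, and 7 of the 39 (17.9%) held a match, against 0.759% of 27025 symbols with a window and 1.5% of the 9624 symbols of tested genes. Of the 11 members with a window that fell after scaling, 2 held a match (Mcm5 and Uhrf1), and of the 25 tested members that did not, 4 did (Mcm6, Pola1, Rfc3 and Dtl). The letters of the CCAAT box were found on either strand in 10 of the 11, in 14 of the 25, in 37.5% of all symbols and in 40.8% of those of tested genes. All 7 members with the E2F-type letters also held CCAAT, and no match of one overlapped a match of the other in them. The 4 windows that hold no annotated exon base are printed because they set 2 members that fell beside 2 that did not, and capitals mark the E2F-type letters. They are, on mm10, chr8:75109259-75109508 (plus strand) for Mcm5, chr17:56304063-56304312 (plus strand, before a second start of the gene) for Uhrf1, chr1:128359706-128359955 (minus strand) for Mcm6 and chrX:93632156-93632405 (minus strand) for Pola1.
Mcm5: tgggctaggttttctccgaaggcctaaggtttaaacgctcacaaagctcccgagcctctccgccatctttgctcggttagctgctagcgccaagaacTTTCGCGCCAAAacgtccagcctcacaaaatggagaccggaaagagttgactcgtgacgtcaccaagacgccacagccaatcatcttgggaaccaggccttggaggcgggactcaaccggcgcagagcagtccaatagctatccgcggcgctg
Uhrf1: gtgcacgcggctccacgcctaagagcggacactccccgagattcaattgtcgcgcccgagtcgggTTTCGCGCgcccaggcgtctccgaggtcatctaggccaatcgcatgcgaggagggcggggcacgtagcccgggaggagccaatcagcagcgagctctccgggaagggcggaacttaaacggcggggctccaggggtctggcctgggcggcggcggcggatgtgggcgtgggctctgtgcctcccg
Mcm6: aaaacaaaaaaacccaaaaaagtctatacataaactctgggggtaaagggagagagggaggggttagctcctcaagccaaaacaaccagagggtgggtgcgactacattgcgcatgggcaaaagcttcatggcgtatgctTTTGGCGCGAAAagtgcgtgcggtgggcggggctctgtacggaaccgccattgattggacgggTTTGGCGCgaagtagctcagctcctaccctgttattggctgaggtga
Pola1: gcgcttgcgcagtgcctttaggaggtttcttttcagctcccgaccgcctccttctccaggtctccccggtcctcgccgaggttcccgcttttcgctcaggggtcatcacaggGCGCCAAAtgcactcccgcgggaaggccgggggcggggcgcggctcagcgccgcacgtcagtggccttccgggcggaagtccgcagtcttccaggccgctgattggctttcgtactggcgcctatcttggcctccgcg
Matches on opposite strands overlap each other in the Mcm5 window and for one pair of matches in the Mcm6 window. A match is a description of the letters and not a bound site.

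None of the tested genes of origin recognition was called. All 5 ORC genes tested (Orc2 to Orc6) had groups that overlapped on both scales, and 0 were called. Orc5, the member of this group with the smallest p as deposited, was at 12.7, 10.2 and 7.52 TPM in Cend1-KO libraries and at 7.41, 7.79 and 9.40 TPM in control libraries. Cend1-KO replicate 4 lay among the controls, and the log2 difference of 0.25 (SE 0.26) had an adjusted p = 0.678 by limma (0.231 after scaling). After scaling the differences of Orc2 to Orc6 ran from -0.052 to 0.38. Orc6, needed for loading the helicase, had an unadjusted p = 0.0457 and an adjusted p = 0.168 after scaling, with a positive difference, and 15.2% of all genes were higher at an unadjusted p under 0.05 on that scale. Within the complex, Orc3 made 28.0%, 32.6% and 30.2% of the summed ORC TPM in Cend1-KO libraries and 37.5%, 34.7% and 35.5% in control libraries, and these groups did not overlap. The share of Orc1 was also lower in every Cend1-KO library (0.147% to 0.372%) than in any control (0.620% to 0.725%), while the shares of Orc2, Orc4, Orc5 and Orc6 overlapped.

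Orc1, the ORC subunit whose level is known to follow the cell cycle, was too low to be tested. Its values were 0.296, 0.0952 and 0.191 TPM in Cend1-KO libraries and 0.410, 0.487 and 0.421 TPM in control libraries, and the groups did not overlap on either scale. The other untested members were the loader Cdc6, the leading-strand polymerase subunit Pole and the checkpoint mediator Clspn. Pole was at 0.645, 0.571 and 0.621 TPM in Cend1-KO libraries and 0.880, 1.03 and 1.04 TPM in control libraries. Clspn was at 0.826, 0.283 and 0.243 TPM in Cend1-KO libraries and 1.12, 0.929 and 1.13 TPM in control libraries. Both were lower in every Cend1-KO library than in any control, while the groups of Cdc6 overlapped (0.257 to 0.648 TPM in Cend1-KO and 0.418 to 1.02 TPM in control). A further gene, Dtl, passed the filter of 1 TPM in 3 libraries only through the controls. Dtl is nevertheless counted among the 43 tested and the 20 lower at an unadjusted limma p under 0.05. It is also among the 16 (as deposited) and 22 (after scaling) members that were lower without overlap. These counts thus lend it no support.

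Of the loading genes, Cdt1 fell after scaling. Cdt1, which brings the MCM helicase to origins, was at 2.06, 1.01 and 1.35 TPM in Cend1-KO libraries and at 3.61, 3.88 and 3.54 TPM in control libraries. All 3 Cend1-KO values lay below every control. The difference was -0.94 (SE 0.22) as deposited (limma adjusted p = 0.0518) and -0.86 (SE 0.13) after scaling (adjusted p = 0.00468). Geminin (Gmnn), the inhibitor that holds Cdt1 inactive after S phase begins, was at 65.1, 40.9 and 45.9 TPM in Cend1-KO libraries and at 64.3, 65.6 and 63.3 TPM in control libraries. Its groups overlapped through Cend1-KO replicate 1, and it was not called (adjusted p = 0.485, and 0.323 after scaling). The ratio of Cdt1 to Gmnn within a library, which no scaling can move, was 0.0317, 0.0248 and 0.0293 in Cend1-KO libraries and 0.0561, 0.0591 and 0.0559 in control libraries, so that the groups did not overlap.

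Of the 6 subunits of the helicase ring, 5 fell after scaling. Mcm2, whose tail also binds histones, was at 7.69, 4.30 and 4.81 TPM in Cend1-KO libraries and at 11.5, 11.8 and 12.96 TPM in control libraries. The Cend1-KO mean was 49.8% of the control mean after scaling, and the groups did not overlap. The difference was -1.02 (SE 0.26) as deposited (limma adjusted p = 0.0676) and -0.90 (SE 0.13) after scaling (adjusted p = 0.00418). Mcm5 was at 7.02, 2.61 and 3.42 TPM in Cend1-KO libraries and at 7.15, 9.65 and 10.8 TPM in control libraries, with Cend1-KO replicate 1 just under control replicate 1. After scaling the Mcm5 difference was -0.89 (SE 0.19, adjusted p = 0.0194), and it stayed called in 3 of the 6 fits without 1 library.

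Mcm3, Mcm4 and Mcm7 also fell after scaling. Mcm3 was at 7.21, 3.76 and 4.30 TPM in Cend1-KO libraries and at 7.45, 8.47 and 10.4 TPM in control libraries (scaled difference -0.60, SE 0.15, limma adjusted p = 0.0339). Mcm4 was at 5.33, 2.30 and 3.81 TPM in Cend1-KO libraries and at 5.36, 6.18 and 7.40 TPM in control libraries (scaled difference -0.54, SE 0.15, adjusted p = 0.0452). For both, Cend1-KO replicate 1 lay just below control replicate 1. Mcm7 was at 13.01, 8.20 and 9.38 TPM in Cend1-KO libraries and at 14.2, 16.6 and 17.7 TPM in control libraries (scaled difference -0.51, SE 0.14, adjusted p = 0.0463). Its exons overlap those of Ap4m1 on the other strand by 321 bases, and since the strand setting of the counting is not stated, reads of such pairs cannot be told apart. Without 1 library at a time these 3 genes were called in at most 2 of the 6 scaled fits.

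Mcm6 was the ring subunit that was not called. It was at 13.1, 5.83 and 9.004 TPM in Cend1-KO libraries and at 9.97, 12.6 and 14.7 TPM in control libraries, with groups that overlapped (adjusted p = 0.509 by limma, and 0.235 after scaling). Shares of the summed ring transcripts give a view within each library. Mcm2 made 14.4%, 15.9% and 13.9% of the summed MCM2-7 TPM in Cend1-KO libraries and 20.6%, 18.0% and 17.5% in control libraries. Mcm6 made 24.5%, 21.6% and 25.9% in Cend1-KO libraries and 17.9%, 19.4% and 19.9% in control libraries. Neither pair of groups overlapped, and a share within a library does not depend on scaling. The shares of a complex add up to the whole, so lower shares of some subunits make those of others larger. A larger share, here and in the complexes below, thus does not show that a subunit rose. The shares of the other ring subunits had overlapping groups.

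Among the genes that turn the ring into a working helicase, Cdc45 and Gins1 fell after scaling. Cdc45 was at 3.97, 1.99 and 2.51 TPM in Cend1-KO libraries and at 5.31, 7.35 and 6.23 TPM in control libraries. Every Cend1-KO value lay below the controls, and the difference was -0.96 (SE 0.26) as deposited (limma adjusted p = 0.083) and -0.86 (SE 0.16) after scaling (adjusted p = 0.00995). Its exons overlap those of Ufd1 on the other strand by 209 bases. Gins1 was at 5.44, 2.80 and 4.09 TPM in Cend1-KO libraries and at 7.13, 8.56 and 6.83 TPM in control libraries, and these groups did not overlap either (scaled difference -0.65, SE 0.15, adjusted p = 0.0243). Gins1 stayed called in 3 of the 6 fits without 1 library.

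The 4 GINS subunits form one complex in equal parts. After scaling the differences of Gins2, Gins3 and Gins4 were -0.39, 0.095 and -0.063 (limma adjusted p = 0.14, 0.691 and 0.777). Gins1 made 15.1%, 14.1% and 14.3% of the summed GINS TPM in Cend1-KO libraries and 22.0%, 22.5% and 18.8% in control libraries. Gins4, the most abundant, made 68.1%, 71.7% and 70.9% in Cend1-KO libraries and 63.2%, 60.4% and 63.9% in control libraries. Gins2 made 9.63% to 11.5% in Cend1-KO libraries and 11.6% to 14.3% in control libraries. The Gins1, Gins2 and Gins4 shares each separated the groups, and those of Gins3 overlapped. Gins2 has 2758 bases of exon that overlap Gse1 on the other strand, so its value is uncertain. Mcm10, which helps to start unwinding, and Mcm8, a helicase of recombination repair, had overlapping groups and adjusted p = 0.216 and 0.305 after scaling.

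Most primase and polymerase genes were not called. Prim1, the catalytic primase subunit that lays the RNA primers, was the exception of the 8 tested. It was at 6.13, 3.26 and 4.21 TPM in Cend1-KO libraries and at 6.61, 10.9 and 8.55 TPM in control libraries. The groups did not overlap, although Cend1-KO replicate 1 came close to control replicate 1, and the scaled difference was -0.71 (SE 0.18, limma adjusted p = 0.0397). It stayed called in 1 of the 6 fits without 1 library. Its partner Prim2 was at 4.72, 1.83 and 2.85 TPM in Cend1-KO libraries and at 2.14, 3.41 and 4.16 TPM in control libraries, with adjusted p = 0.94 (0.951 after scaling). The ratio of Prim1 to Prim2 was 1.30, 1.78 and 1.48 in Cend1-KO libraries and 3.09, 3.21 and 2.06 in control libraries, without overlap.

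Pola1 and Pola2, the DNA polymerase subunits that extend the primers, had scaled differences of 0.0048 and 0.016 with SE of 0.17 and 0.17, and their sign as deposited was negative (-0.10 for each). The polymerase delta genes Pold1, Pold2 and Pold3, which copy the lagging strand, had scaled differences of -0.27, -0.40 and -0.0053 (limma adjusted p = 0.28, 0.0783 and 0.986). Of these, the groups of Pold2 did not overlap. The shares of Pold1, Pold2 and Pold3 in their summed TPM all had overlapping groups. Pole2, a polymerase epsilon subunit, had a scaled difference of -0.19 (adjusted p = 0.476).

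**Figure D3:**
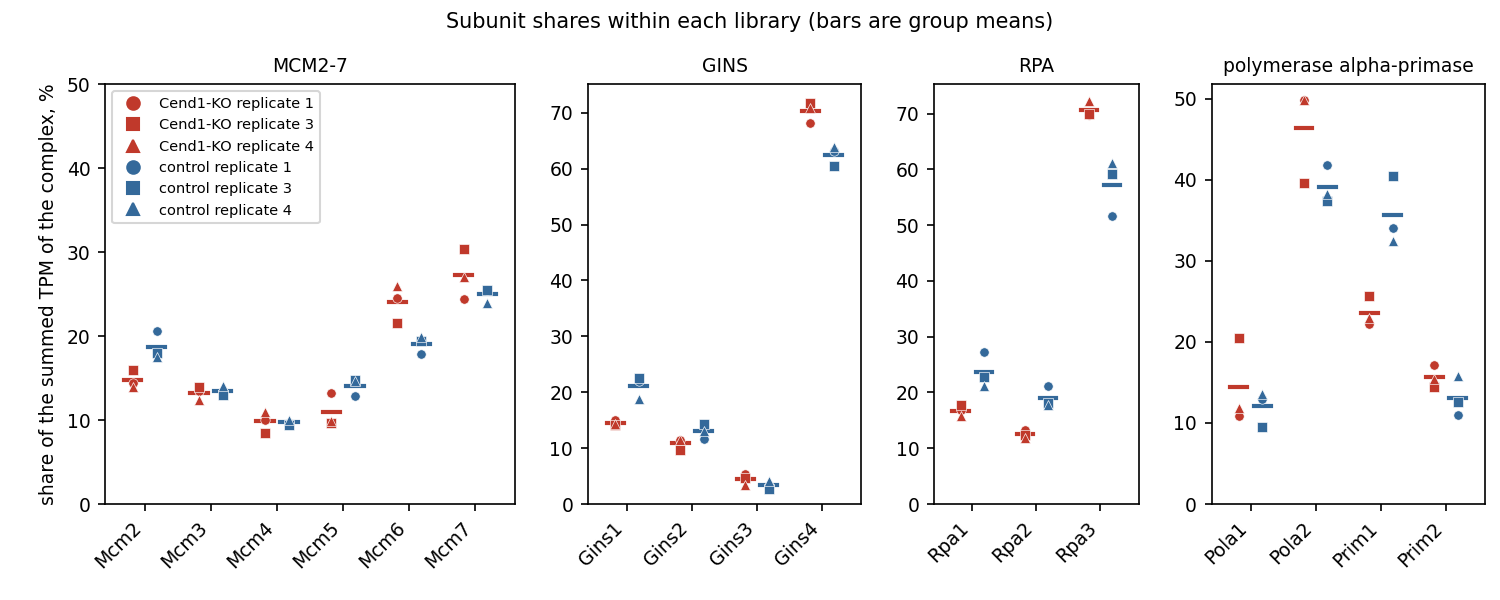
Share of each subunit in the summed TPM of its complex, in %, for 4 of the 7 complexes examined, with 1 point per library and bars at group means. Mcm2, Gins1, Gins2, Rpa1, Rpa2 and Prim1 take a smaller share in every Cend1-KO library than in any control, and Mcm6, Gins4 and Rpa3 a larger one. Shares of a complex add up to the whole, so smaller and larger shares are not independent.

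Pcna, the sliding clamp that tethers polymerases, was the most abundant member. It was at 82.3, 45.9 and 58.9 TPM in Cend1-KO libraries and at 90.7, 101.8 and 99.8 TPM in control libraries. The Cend1-KO mean was 68.5% of the control mean after scaling, with groups that did not overlap (scaled difference -0.54, SE 0.14, limma adjusted p = 0.0439). Leaving out any one library ended this call, with adjusted p from 0.0524 to 0.152. The annotation holds pseudogenes of Pcna (Pcna-ps1 and Pcna-ps2), between which reads may have been split.

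The genes of the clamp loader, which opens the PCNA ring onto DNA, were not called. Rfc3, Rfc4 and Rfc5, small subunits, had scaled differences of -0.57, -0.51 and -0.50 (limma adjusted p = 0.0932, 0.099 and 0.0593), and after scaling the groups of each did not overlap. Rfc1, the large subunit, and Rfc2 had scaled differences of 0.0074 and -0.15 with overlapping groups. Rfc1 and Rfc2 made a larger share of the summed loader TPM in every Cend1-KO library (18.6% to 21.5% and 16.9% to 19.2%) than in any control library (12.7% to 17.5% and 15.0% to 15.7%). Exons of Rfc2 overlap Lat2 by 952 bases, those of Rfc5 overlap Wsb2 by 499 and those of Rfc4 overlap Eif4a2 by 194, all on the other strand.

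RPA coats single-stranded DNA as a trimer, and its 2 larger subunits fell after scaling while Rpa3 was not called. Rpa1 was at 15.3, 9.48 and 12.0 TPM in Cend1-KO libraries and at 19.4, 21.04 and 19.3 TPM in control libraries (scaled difference -0.55, SE 0.13, limma adjusted p = 0.0304). Rpa2 was at 12.2, 6.58 and 9.12 TPM in Cend1-KO libraries and at 15.0, 16.7 and 16.3 TPM in control libraries (scaled difference -0.64, SE 0.13, adjusted p = 0.0153). Neither gene had overlapping groups, and without 1 library Rpa1 stayed called in 2 of the 6 fits. Rpa3, the smallest subunit, was at 63.6, 37.3 and 55.3 TPM in Cend1-KO libraries and at 36.7, 54.5 and 55.9 TPM in control libraries, with overlap and a scaled difference of 0.21 (SE 0.18, adjusted p = 0.463). Rpa3 made 69.8%, 69.9% and 72.3% of the summed RPA TPM in Cend1-KO libraries and 51.6%, 59.1% and 61.1% in control libraries.

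The enzymes that finish Okazaki fragments, the flap nuclease Fen1 and the ligase Lig1, were not called. Lig1 was at 4.63, 1.68 and 2.68 TPM in Cend1-KO libraries and at 3.81, 5.22 and 6.13 TPM in control libraries. Its groups overlapped through Cend1-KO replicate 1, and the difference was -0.65 (SE 0.29) as deposited (limma adjusted p = 0.306) and -0.56 (SE 0.18) after scaling (adjusted p = 0.0776). Fen1 had a scaled difference of -0.51 (adjusted p = 0.0704), and 1909 of its exon bases overlap the antisense gene Gm10143. Exons of Lig1 overlap those of Zswim9 on the other strand by 247 bases.

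Of the genes that restore chromatin behind the fork, Uhrf1 fell after scaling. Uhrf1 reads DNA methylated on one strand and brings the maintenance methyltransferase to it. It was at 3.29, 1.496 and 2.33 TPM in Cend1-KO libraries and at 5.09, 5.08 and 5.99 TPM in control libraries, without overlap. The difference was -0.95 (SE 0.25) as deposited (limma adjusted p = 0.0753) and -0.86 (SE 0.13) after scaling (adjusted p = 0.00418). Chaf1a and Chaf1b, subunits of the histone chaperone CAF-1, had scaled differences of -0.32 and -0.48 (adjusted p = 0.171 and 0.0804). Exons of Chaf1a overlap those of Ubxn6 on the other strand by 4648 bases, so its value is uncertain. Dtl, which directs Cdt1 to destruction at the fork, was at 0.928, 0.547 and 0.717 TPM in Cend1-KO libraries and at 1.22, 1.90 and 1.64 TPM in control libraries (adjusted p = 0.0509 after scaling).

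**Figure D4:**
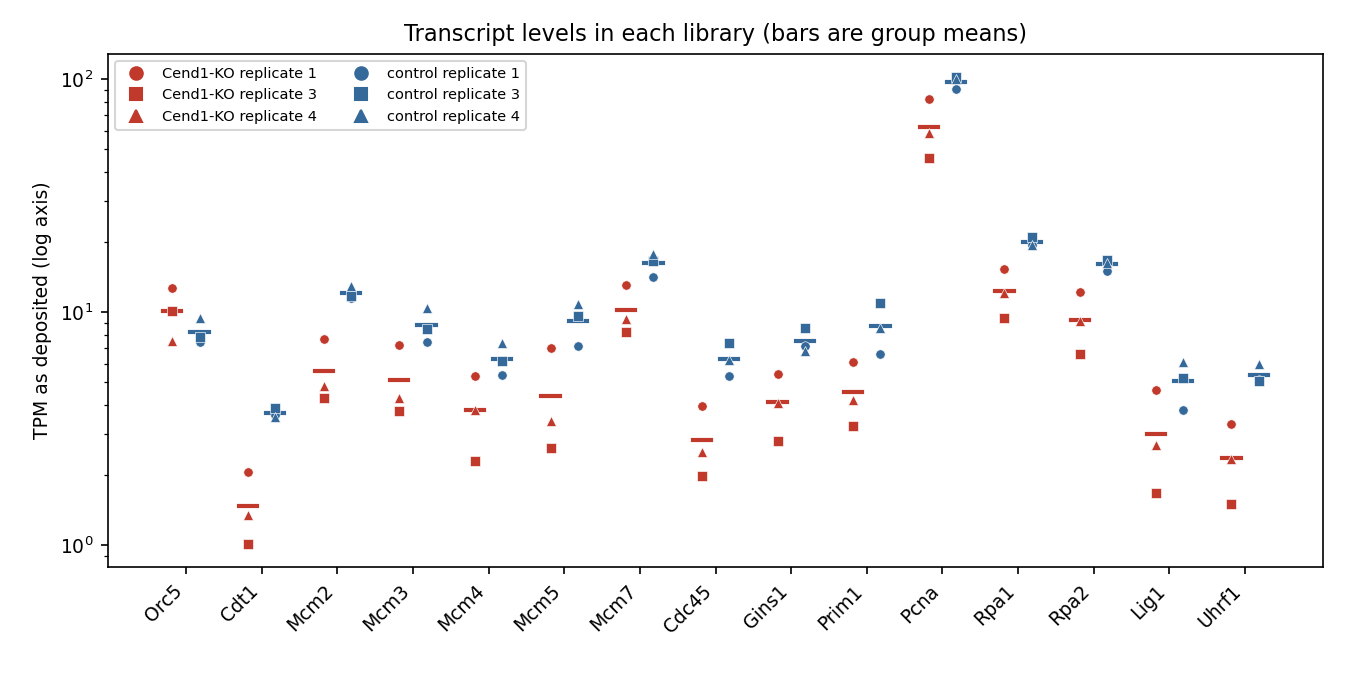
TPM as deposited on a log axis for the 13 members that fell after scaling and for Orc5 and Lig1, which were not called. Points are libraries and bars group means. For the 13, every Cend1-KO value is below every control value, and for Orc5 and Lig1 the groups overlap.

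Another 36 genes of replication outside the list were taken for comparison, and 29 of them were tested. As deposited 1 of the 29 was called, Asf1b, against 1.70% of all genes, and 4 fell after scaling with 0 that rose, against 4.14% and 6.17% of all genes. Asf1b, a histone chaperone of cycling cells, was at 4.69, 2.66 and 2.95 TPM in Cend1-KO libraries and at 8.22, 9.73 and 10.6 TPM in control libraries. The groups did not overlap, and the difference was -1.26 (SE 0.25) as deposited (limma adjusted p = 0.0235) and -1.15 (SE 0.14) after scaling (adjusted p = 0.00191). As deposited, 4 of the 29 were called as lower once Cend1-KO replicate 1 was left out (3.87% of all genes) and 2 once Cend1-KO replicate 3 was (2.32%), and 0 when any other library was left out.

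Pclaf, a small protein that binds PCNA, was at 7.09, 3.36 and 4.78 TPM in Cend1-KO libraries and at 10.1, 14.1 and 13.2 TPM in control libraries. Its groups did not overlap, and its limma adjusted p was 0.0501 as deposited and 0.00427 after scaling. Dbf4, the activator of the Cdc7 kinase that fires origins, had a scaled difference of -0.64 (adjusted p = 0.0358). Pole4, a histone-fold subunit of polymerase epsilon, had a scaled difference of -0.52 (adjusted p = 0.0411). Without 1 library, Dbf4 stayed called in 2 of the 6 scaled fits and Pole4 in 0, while Asf1b and Pclaf stayed called in all 6. As deposited the groups of Dbf4 overlapped. The median difference of the 29 was -0.29 as deposited and -0.17 after scaling. Asf1a, the paralogue of Asf1b, had a scaled difference of 0.021 (adjusted p = 0.934).

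Markers of several cell types also differed between the groups. Of all genes, 6.17% rose and 4.14% fell after scaling, and 0.790% were called as higher as deposited. All 8 cardiomyocyte markers were above 1 TPM in every library, and their summed level was 26410 to 39870 TPM in Cend1-KO libraries and 48060 to 52850 TPM in control libraries. After scaling the sums were 26540 to 40690 TPM in Cend1-KO and 42680 to 53640 TPM in control, and 0 of the 8 were called. Although these sums did not overlap, the groups of each of the 8 markers did after scaling. Summed scaled levels of 8 fibroblast markers were 3048 to 4222 TPM in Cend1-KO libraries and 1261 to 2216 TPM in control libraries, and 5 rose on that scale (1 was called as deposited). For 8 endothelial markers they were 381.4 to 714.8 TPM in Cend1-KO and 263.1 to 345.8 TPM in control, and 4 rose (0 called as deposited). The 8 macrophage and myeloid markers summed to 1076 to 1578 TPM in Cend1-KO and 600.7 to 812.4 TPM in control, and 2 rose (0 called as deposited). Lyz2 was the largest part of these sums, at 652.2 to 1034 scaled TPM in Cend1-KO and 282.7 to 424.2 scaled TPM in control. After scaling Lyz2, Cd163, C1qb and Ptprc were higher in Cend1-KO without overlap, while the groups of Cd68, Csf1r, Adgre1 and C1qa overlapped. On that scale 17.9% of all genes were higher without overlap. As deposited the summed levels overlapped between the groups for the endothelial markers (296.8 to 887 TPM in Cend1-KO and 275.6 to 340.8 TPM in control) and for the myeloid markers (767.7 to 1546 TPM in Cend1-KO and 591.9 to 914.7 TPM in control). The fibroblast sums did not overlap as deposited either (2987 to 4359 TPM in Cend1-KO and 1243 to 2495 TPM in control).

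Markers of red blood cells, vessel walls, lymphocytes and lung were also examined. Their counts stand beside the same shares of all genes, 6.17% that rose after scaling and 0.790% called as higher as deposited. The 8 erythroid markers summed to 12060 to 19850 scaled TPM in Cend1-KO libraries and 1483 to 4676 scaled TPM in control libraries, of which 5 rose (3 called as deposited, where the sums were 10750 to 24630 TPM in Cend1-KO and 1554 to 4607 TPM in control). The 8 mural markers summed to 675.7 to 933.8 TPM in Cend1-KO and 500.5 to 659.2 TPM in control, with 1 that rose (0 called as deposited, where the sums overlapped), and the 8 lymphocyte markers to 3.73 to 7.94 TPM in Cend1-KO and 4.38 to 6.37 TPM in control. Cd3e, a T cell marker, was low in every library, and its groups overlapped. It was at 0, 0 and 0.167 TPM in Cend1-KO libraries and at 0.127, 0.0889 and 0.0920 TPM in control libraries. The 8 lung epithelium markers summed to 405.0, 0.760 and 845.4 scaled TPM in Cend1-KO libraries, and to 0.935 to 1.08 scaled TPM in control libraries. The lung markers Sftpc and Sftpb were listed at 0 in every control. The part of these marker differences in the levels of the replication genes was not tested.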

How the data were processed

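Ventricle RNA of 3 Cend1-KO and 3 control libraries was analysed. The tools named by the submitters' processing notes are featureCounts 1.5.0-p3 and HISAT2 2.0.5, with fastp and CASAVA, and the build is mm10. The table deposited by the authors holds TPM, with each library summing to 1000000. How TPM was computed is not given in the sources used here. Columns were matched through the sample descriptions, which tie column C1KO-2 to the library titled C1KO-3 and column C1KO-3 to that titled C1KO-4; replicate numbers here follow the titles. Symbols, positions and exon overlaps came from GENCODE M21 (mm10). Besides the overlaps given above, exons of Orc1, Orc2, Orc4, Orc5, Orc6, Pole, Pole2 and Rpa1 overlap those of other genes. The longest of these overlaps was that of Orc2 with Nif3l1, at 1150 bases.

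A gene was tested if 3 or more libraries reached 1 TPM, with limma 3.58.1 (R 4.3.3) on log2(TPM + 1), with a mean-variance trend, a robust prior and Benjamini-Hochberg adjustment over all 13542 genes. Genes under an adjusted p of 0.05 are called. The log scale understates changes of low genes. The members and lists were chosen with earlier results of these data known. Values in every library are given for members called on either scale and for the member with the smallest p in each role group. Other members that are given library by library (Orc1, Pole, Clspn, Gmnn, Mcm6, Prim2, Rpa3 and Dtl), and the subunit shares and ratios, were chosen after their values were seen. Promoter sequences are RefSeq's (GRCm38.p6).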

Additional observations from a re-analysis of the deposited data

How the results depend on the processing

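The scaling and the libraries decided the member calls. The 0 members called as deposited became 13 after median-of-ratios scaling, 14 after upper-quartile scaling and 3 with mitochondrial and hemoglobin genes removed. The 14 were the same 13 and Dtl, which passed the filter only through the controls. The count stayed 0 with pseudocounts of 0.1 and 0.5 TPM, no filter, a filter at 5 TPM, no robust prior or no trend. Without 1 library at a time the members called ran from 0 to 17 as deposited and from 4 to 13 after median-of-ratios scaling. The 230 genes called in all became 1396, 1405 and 479 under the 3 scalings, 0 with no filter (where 30114 genes were tested) and 116 with the filter at 5 TPM, and ran from 76 to 825 as deposited, and from 468 to 1369 after scaling, without 1 library. The other replication genes called (1) became 4, 4 and 2 under the 3 scalings, 0 with no filter, from 0 to 4 without 1 library and from 2 to 3 with scaling as well. A replicate block gave 5 members, 738 genes and 2 other replication genes, and 8, 1109 and 2 with median-of-ratios scaling. Same-numbered libraries had deviations that correlated at -0.184, 0.0509 and -0.112 (replicates 1, 3 and 4). Those of libraries with different numbers ran from -0.125 to 0.221. With 3 libraries per group, these values cannot settle whether the libraries were paired.

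Signs changed for 11 members, none of them called on either scale. After median-of-ratios scaling, with or without the block, after upper-quartile scaling and with mitochondrial and hemoglobin genes removed, the differences were 0.0048, 4.6e-04 and 0.0028 for Pola1, 0.016, 0.010 and 0.023 for Pola2, 0.023, 0.018 and 0.035 for Prim2, and 0.0074, 0.0021 and 0.012 for Rfc1, all negative as deposited, and 0.0011 for Pold3 in the last. Without 1 library, on either scale, differences ran from -0.16 to 0.18 for Gins3, -0.36 to 0.0070 for Gins4, -0.023 to 0.31 for Orc2, -0.29 to 0.072 for Orc3, -0.0087 to 0.37 for Orc4, -0.19 to 0.11 for Pola1, -0.41 to 0.24 for Pola2, -0.35 to 0.090 for Pold3, -0.33 to 0.18 for Prim2, -0.31 to 0.061 for Rfc1 and -0.12 to 0.35 for Rpa3. The cause of these changes was not tested.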

Other observations

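Timeless, a fork-protection gene outside the member list, was at 12.4, 2.56 and 5.28 TPM in Cend1-KO libraries and at 3.07, 4.69 and 4.30 TPM in control libraries (limma adjusted p = 0.624). Its partner Tipin was at 16.8, 7.93 and 13.1 TPM in Cend1-KO libraries and at 14.7, 20.0 and 20.0 TPM in control libraries (adjusted p = 0.392). Cend1-KO replicate 1 therefore held the highest Timeless value of the 6 libraries without holding the highest Tipin value.

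Of the genes for the ubiquitin ligase that works with Dtl, Cul4b, Cul4a, Ddb1 and Rbx1 were not called. After scaling their differences were 0.39, -0.24, -0.24 and -0.21 (limma adjusted p = 0.139, 0.257, 0.258 and 0.416). As deposited the groups overlapped for Cul4b, Cul4a and Ddb1, and Rbx1 was lower in Cend1-KO without overlap. After scaling the groups of Rbx1 overlapped. On that scale Cul4b was higher, and Cul4a and Ddb1 lower, in every Cend1-KO library than in any control. Among all genes, 17.0% were lower and 17.9% higher without overlap after scaling, and 18.6% were lower as deposited.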
